A study of Rattus norvegicus with 8 samples.

Results

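The 10 genes of insulin signalling and glucose uptake described here were measured in whole blood of male Wistar rats on a high-fat diet with or without mulberry leaf: the insulin receptor gene Insr, the receptor substrates Irs1 and Irs2, the PI3K regulatory subunit Pik3r1, the kinases Akt1 and Akt2, the transcription factor Foxo1, and the glucose transporters Slc2a1, Slc2a3 and Slc2a4. A gene was represented by every probe set (a group of short probes read together) that the array's annotation assigns to that symbol alone. This gave 20 probe sets for the 10 genes, of 31099 on the array. Of these genes, 6 had several probe sets and 4 had 1. The high-fat group and the mulberry group had 4 arrays each, the second diet holding 1% mulberry leaf powder. Each diet was fed to 10 rats. They were bought at 7 weeks of age, acclimated for 1 week and fed for 8 weeks, and blood was drawn on day 56 after a fasted night. The labels call the arrays biological replicates and do not say whether an array holds 1 rat or a pool, so the tests measure the spread between these samples. Normal-diet animals were not analysed here.

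Insulin binds its receptor, a tyrosine kinase, which phosphorylates the IRS adaptors. These recruit PI3K, whose lipid product activates AKT, and AKT in turn keeps FOXO1 out of the nucleus and sends the transporter GLUT4, encoded by Slc2a4, to the surface of muscle and fat cells. Much of the glucose that leukocytes take up enters through GLUT1 and GLUT3, encoded by Slc2a1 and Slc2a3, which do not wait for insulin. Leukocytes use the same PI3K and AKT enzymes downstream of many other receptors. Mulberry leaf is known for sugar-mimicking alkaloids that slow the digestion of carbohydrate.

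None of the 20 probe sets differed between the diets in the limma fit over all probe sets (Benjamini-Hochberg adjusted p, threshold 0.05). The background was the same, with 0% of 31038 probe sets called and a lowest adjusted p of 0.569. At an unadjusted p under 0.05, 1 of the 20 stood out, an Akt2 probe set, which is 5% against 4.35% of all probe sets. That count was 3 without high-fat replicate 4, where the share of all probe sets was 3.81%. It was 0 when high-fat replicates 1 or 2 or mulberry replicates 3 or 4 were left out in turn, against 3.51% to 5.2%. The diet groups of every one of the 20 overlapped, while 2.52% of all probe sets had groups that did not. The mean was higher with mulberry for 12 of the 20 probe sets and lower for 8, against 52.7% higher over all probe sets. These shares lie near the background. The largest differences towards higher means with mulberry were those of Irs1 (1.44 ± 0.634, SE), 1 Akt2 probe set (1.28 ± 0.528) and 1 Slc2a3 probe set (1.18 ± 0.651). The largest towards lower means was that of the other Slc2a3 probe set (-1.06 ± 0.655), which turned to 1.09 with arrays median-centred.

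All differences are mulberry minus high-fat in SD units. One unit equals a probe set's own SD across the arrays of the fit, which are 8 unless 1 is left out. The SD is taken after an alternative's own normalization, so sizes cannot be compared closely between settings. Leaving out an outlying array also shrinks the unit. As a difference of means, 1.87 is the largest value that 4 against 4 arrays can reach. The unit was needed because the deposited values hardly vary between arrays. The 20 probe sets had mean log2 levels from 5.78 to 8.46, with SDs from 1.54e-06 to 5.16e-05, so a difference cannot be read as a fold change. The common scale also decides many directions. When each array was centred on its median, all 20 probe sets had higher means with mulberry, as did 96.9% of all probe sets (median difference 1.15). Quantile normalization gave 9 higher, 8 lower and 3 at 0, against 28.2% higher and a median difference of 0 over all probe sets. It left many values equal between arrays. The 3 at 0 had no spread left and were not tested. A difference of 0.707 or -0.707 is what 1 array apart from equal others gives, so such a direction rests on little. Mulberry minus high-fat directions below are those of the deposited values. The hybridization covariate used below is the mean of spike-in control probe sets. It stood at -1.44, 0.439, -0.16 and -1.07 on the high-fat and 1.3, 0.695, 0.473 and -0.236 on the mulberry arrays. It thus ran with diet in part, and a fit with both cannot fully separate them. Differences given with this covariate are adjusted coefficients, not differences of means, and can exceed 1.87. A turn under it therefore decides little.

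High-fat replicate 4 stood apart most often, being the most extreme array for 17.8% of all probe sets against 9.2% to 13% for each of the others, and for 5 of the 20. Of 14 measured erythroid markers, 13 lay above the median probe set level used as a filter on dim signals (6.57), among them Hbb, a globin chain, at a log2 level of 15.09. By contrast 8 of 11 skeletal muscle markers did not pass it, Ckm and Acta1 included, nor did 5 of 7 adipose, 6 of 9 liver and 6 of 10 pancreatic markers. Myh1 of muscle, Lipe of adipose tissue and Ins1 of the pancreas were among those that passed. The other blood cell lists passed in 9 of 14 neutrophil, 11 of 16 natural killer and 15 of 17 monocyte genes. They passed in 18 of 20 T cell, 14 of 15 platelet and 12 of 12 B cell genes. Falling below the filter thus does not mark a gene as foreign to blood. Of the 20 described probe sets, 12 passed the filter, and every probe set of Insr, Irs1 and Irs2 did not. Akt1 1368862_at, Akt1 1375178_at, Slc2a3 1387707_at and Foxo1 1375688_at also lay below it.

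**Figure D1:**
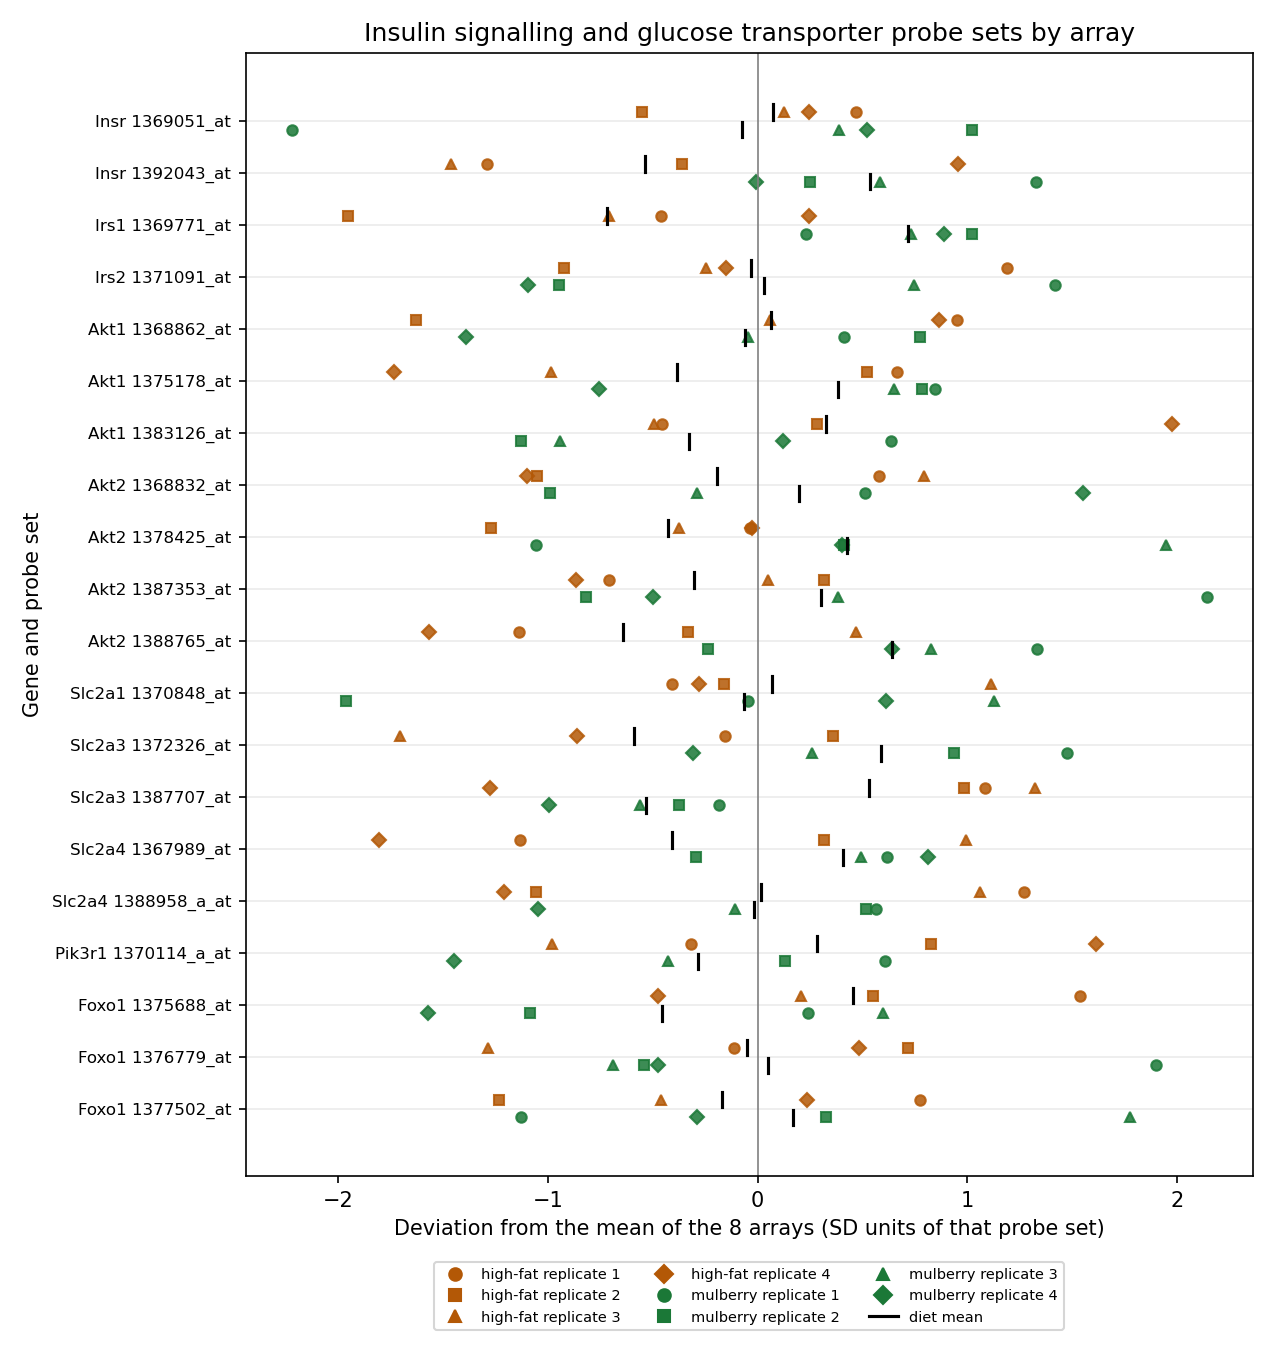
Each row is 1 probe set, and the horizontal axis gives its deviation on each array from its mean over the 8 arrays, in SD units of that probe set. Orange marks are high-fat and green marks mulberry arrays, the shape gives the replicate and black bars are diet means; the diets overlap in all 20 rows.

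The receptor gene had 2 probe sets, which disagreed. Insr 1392043_at (log2 level 5.78) stood at -1.29, -0.361, -1.46 and 0.957 on high-fat replicates 1 to 4 and at 1.33, 0.251, 0.582 and -0.00825 on mulberry replicates 1 to 4. Its difference was 1.08 ± 0.691 (SE, unadjusted limma p = 0.164, exact permutation p = 0.171), and high-fat replicate 4 lay inside the mulberry range while the other 3 high-fat arrays lay below it. Without that array the difference was 1.58, with an unadjusted p of 0.0401 and an adjusted p of 1 after rounding. It was 0.852 with the hybridization covariate and 0 after quantile normalization. The other Insr probe set, 1369051_at (log2 level 6.23), stood at 0.471, -0.553, 0.127 and 0.245 on the high-fat and at -2.22, 1.02, 0.387 and 0.522 on the mulberry arrays. A single array decided the sign there. The difference was -0.145 ± 0.807 with mulberry replicate 1, the lowest of the 8, and 1.2 without it; median centring gave 1.14 and a covariate for the hybridization controls (spike-in probe sets) gave 0.839.

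Irs1, the substrate that carries much of the insulin signal in muscle and fat, gave the largest difference of the 20. Its probe set 1369771_at (log2 level 5.83, below the filter on dim signals) stood at -0.461, -1.95, -0.707 and 0.244 on the high-fat arrays and at 0.232, 1.02, 0.731 and 0.89 on the mulberry arrays. Means were -0.719 ± 0.915 on the high-fat and 0.719 ± 0.345 on the mulberry arrays (SD, n = 4 each). Replicates 2, 3 and 4 of the mulberry arrays lay above all high-fat arrays, and replicate 1 lay just under high-fat replicate 4. The difference was 1.44 ± 0.634 (SE, 95% interval -0.0704 to 2.95, unadjusted limma p = 0.0588, two-sided exact permutation p = 0.0571). It stayed higher with mulberry without any 1 array (1.36 to 1.64). With each array median-centred it was 1.22, near the median difference of 1.15 over all probe sets in that setting. As an adjusted coefficient with the hybridization covariate the Irs1 difference was 2.22. Quantile normalization left this probe set without spread between arrays, and the difference was 0.

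Irs2, the substrate prominent in liver, showed no such pattern. On the high-fat arrays 1371091_at stood at 1.19, -0.922, -0.246 and -0.148, and on the mulberry arrays at 1.42, -0.945, 0.747 and -1.09. Both diets held arrays at either end. The difference of 0.0638 ± 0.808 (SE) had a 95% interval of -1.86 to 1.99, which spans nearly every difference that 4 against 4 arrays allow, and it was -0.707 after quantile normalization. Whether the Irs1 and Irs2 differences differ from each other was not tested.

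Pik3r1 encodes the regulatory subunits that dock PI3K onto phosphorylated IRS proteins. Its probe set 1370114_a_at (log2 level 6.91) had a wide spread, an SD of 5.01e-05 that was larger than those of 93.9% of all probe sets. It stood at -0.319, 0.826, -0.981 and 1.61 on the high-fat arrays and at 0.606, 0.129, -0.427 and -1.45 on the mulberry arrays. High-fat replicate 4 was the highest array and mulberry replicate 4 the lowest, and the other 6 were mixed. The difference was -0.569 ± 0.684 (SE, unadjusted limma p = 0.434, exact permutation p = 0.429), turning to 0.126 after median centring and 0.611 after quantile normalization.

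For Akt2, the AKT isoform best known for insulin-stimulated glucose uptake, all 4 probe sets had higher means with mulberry on the deposited values. With arrays median-centred they were higher too, but so were all 20 described probe sets and 96.9% of all probe sets. Quantile normalization turned 1368832_at and 1378425_at (-0.0854 and -0.707), and the hybridization covariate turned 1387353_at (-0.462). The clearest Akt2 probe set was 1388765_at (log2 level 8.46). It stood at -1.14, -0.33, 0.471 and -1.57 on the high-fat and at 1.33, -0.235, 0.827 and 0.641 on the mulberry arrays. Mulberry replicates 1, 3 and 4 lay above every high-fat array and replicate 2 lay between high-fat replicates 2 and 3. The difference was 1.28 ± 0.528 (SE, 95% interval 0.0252 to 2.54, unadjusted limma p = 0.0467, two-sided exact permutation p = 0.0571), and the adjusted p was 1 after rounding. This was the single unadjusted p under 0.05 among the 20. It was over 0.05 when any 1 of 6 arrays was left out (high-fat replicates 1, 2 and 4, mulberry replicates 1, 3 and 4), the difference then being between 1.15 and 1.29. The difference was 0.612 with the hybridization covariate and 0.707 after quantile normalization.

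The other Akt2 probe sets had smaller differences. Probe set 1378425_at stood at -0.0351, -1.27, -0.373 and -0.0255 on the high-fat and -1.06, 0.413, 1.95 and 0.4 on the mulberry arrays, a difference of 0.853 ± 0.649 (SE). Mulberry replicate 3 was far above the rest there, and mulberry replicate 1 was among the lowest; the difference was 0.519 without the first and 1.38 without the second, where the unadjusted p was under 0.05. Probe set 1387353_at stood at -0.708, 0.317, 0.0519 and -0.865 against 2.14, -0.82, 0.382 and -0.499 (0.602 ± 0.686), with mulberry replicate 1 far at the top, replicate 3 just above the high-fat range and the others within it; the difference was -0.0207 without replicate 1. For 1368832_at the values were 0.576, -1.05, 0.792 and -1.1 against 0.511, -0.99, -0.29 and 1.55 (0.391 ± 0.703), and the difference was -0.0723 without mulberry replicate 4.

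Akt1, the most widely expressed AKT isoform, had 1 probe set with a higher and 2 with lower means. Probe set 1383126_at (log2 level 8.12, SD 4.81e-05) stood at -0.454, 0.285, -0.495 and 1.97 on the high-fat and 0.638, -1.13, -0.941 and 0.122 on the mulberry arrays. Its difference of -0.654 ± 0.673 (SE) was -0.161 without high-fat replicate 4, the highest array; it turned to 0.108 after median centring and 0.483 after quantile normalization. Probe set 1375178_at stood at 0.666, 0.52, -0.983 and -1.73 against 0.847, 0.786, 0.649 and -0.754 (0.764 ± 0.684, -0.707 after quantile normalization). Its 2 lowest arrays were high-fat replicates 4 and 3, followed by mulberry replicate 4, whereas the other 5 lay between 0.52 and 0.847. For 1368862_at the values were 0.951, -1.63, 0.0574 and 0.865 against 0.413, 0.772, -0.0435 and -1.39, with a difference of -0.124 ± 0.736 that was 1.14 after median centring and 0.356 without mulberry replicate 4.

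Foxo1 encodes a transcription factor that AKT restrains and that drives homing receptor genes in resting lymphocytes. Of its 3 probe sets, 1 had a lower and 2 had higher means with mulberry. Probe set 1375688_at stood at 1.54, 0.549, 0.207 and -0.477 on the high-fat and 0.24, -1.09, 0.598 and -1.57 on the mulberry arrays, a difference of -0.909 ± 0.669 (SE, unadjusted limma p = 0.217, exact permutation p = 0.257) that was 1.08 after median centring. Only high-fat replicate 1 lay above all mulberry arrays and only mulberry replicates 2 and 4 below all high-fat arrays. Probe set 1376779_at stood at -0.111, 0.718, -1.28 and 0.482 against 1.9, -0.543, -0.688 and -0.473 (0.0973 ± 0.733). Mulberry replicate 1 was the highest array, and the difference was -0.75 without it and -0.502 with the hybridization covariate, but 1.29 after quantile normalization and 1.25 with arrays median-centred. For 1377502_at the values were 0.774, -1.23, -0.461 and 0.236 against -1.13, 0.324, 1.78 and -0.291, where mulberry replicate 3 was the highest array; the difference of 0.342 ± 0.707 was -0.257 without it and -0.665 after quantile normalization.

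Among the transporters, Slc2a1 encodes GLUT1, the carrier of basal glucose uptake. Its probe set 1370848_at (log2 level 7.02) stood at -0.41, -0.158, 1.11 and -0.28 on the high-fat and -0.0473, -1.96, 1.13 and 0.612 on the mulberry arrays. The difference was -0.133 ± 0.797 (SE, 95% interval -2.03 to 1.76). Mulberry replicate 2 was the lowest array by a wide margin, and without it the difference was 0.754; it was 1.17 after median centring and 0.121 after quantile normalization.

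The 2 probe sets of Slc2a3, which encodes the high-affinity carrier GLUT3 of leukocytes and platelets, pointed opposite ways. Probe set 1372326_at (log2 level 6.93) stood at -0.155, 0.359, -1.7 and -0.862 on the high-fat and 1.47, 0.934, 0.259 and -0.306 on the mulberry arrays, a difference of 1.18 ± 0.651 (SE, unadjusted limma p = 0.114, exact permutation p = 0.143). The difference stayed above 0 without any 1 array (1.02 to 1.4), after quantile normalization (0.768) and with the hybridization covariate (0.623). Median centring gave 1.22, but in that setting 96.9% of all probe sets were higher, with a median difference of 1.15. Probe set 1387707_at (log2 level 6.42, below the filter) stood at 1.09, 0.983, 1.32 and -1.27 against -0.186, -0.375, -0.562 and -0.996. Here 3 high-fat arrays lay near 1 and above every mulberry array, while high-fat replicate 4 was the lowest of the 8. The difference was -1.06 ± 0.655 (unadjusted limma p = 0.151, exact permutation p = 0.143), and -1.79 ± 0.423 without high-fat replicate 4, with an unadjusted p of 0.00584 and an adjusted p of 1 after rounding. It was 0 after quantile normalization and 1.09 after median centring.

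Slc2a4 encodes GLUT4, the insulin-responsive carrier of muscle and fat. Probe set 1367989_at (log2 level 7.09) had the widest spread of the 20, with an SD of 5.16e-05. It stood at -1.13, 0.318, 0.993 and -1.8 on the high-fat and 0.616, -0.295, 0.493 and 0.814 on the mulberry arrays, a difference of 0.814 ± 0.646 (SE, unadjusted limma p = 0.25, exact permutation p = 0.314). The 2 lowest arrays were high-fat replicates 4 and 1, and the highest was high-fat replicate 3, so the mulberry arrays lay within the high-fat range; with the hybridization covariate the difference was 0.0375. Probe set 1388958_a_at, whose suffix marks probes shared by transcripts of a gene, stood at 1.27, -1.06, 1.06 and -1.21 against 0.566, 0.519, -0.105 and -1.05, with a difference of -0.0337 ± 0.77 (95% interval -1.87 to 1.8) that turned to 1.14 after median centring and 0.386 after quantile normalization.

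**Figure D2:**
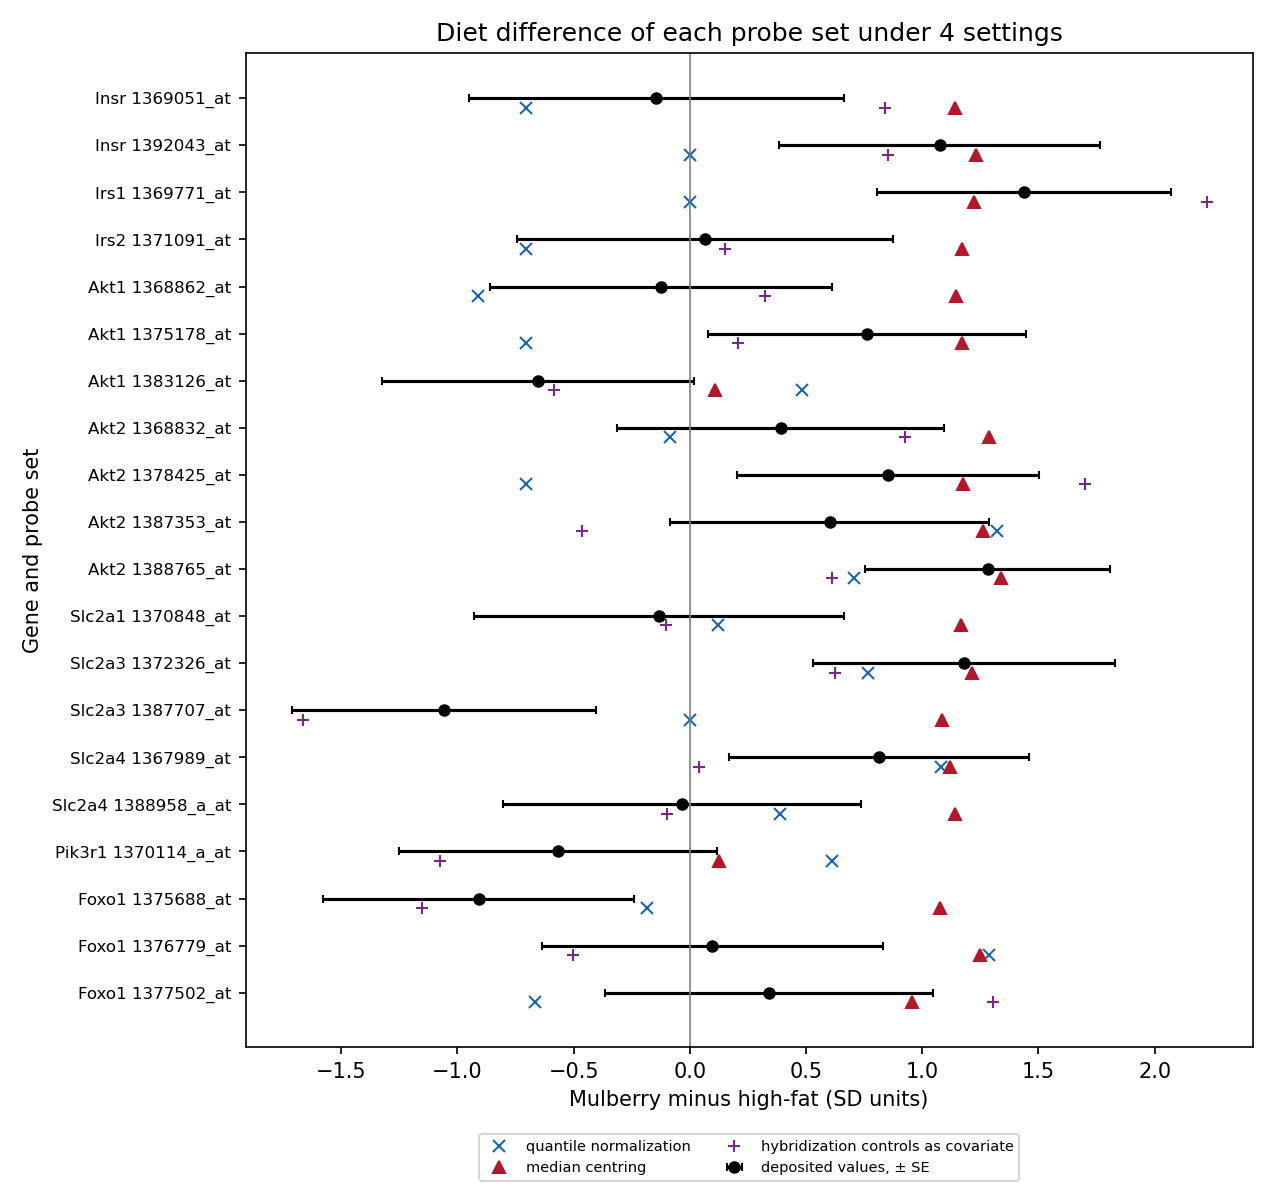
For each probe set (rows) the horizontal axis gives mulberry minus high-fat in the SD units of each setting. Black points with bars are the deposited values ± SE, and the other marks are 3 alternative settings. Irs1 1369771_at lies at 1.44 and Slc2a3 1387707_at at -1.06, and the median-centred marks are above 0 in all 20 rows.

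Probe sets of 1 gene did not follow each other over the arrays beyond what the tests could tell. Over 15 within-gene pairs and 8 arrays, Pearson's r was above 0 for 10, with a median of 0.0303, and no pair passed after Benjamini-Hochberg adjustment of the exact permutation p. The closest pair was Akt2 1387353_at and 1388765_at (r = 0.731, exact permutation p = 0.0294, adjusted 0.441; rho = 0.786, exact permutation p = 0.0279, adjusted 0.419). Without the 2 arrays farthest from the median of 1387353_at, r was 0.49. For the 2 Slc2a3 probe sets r was -0.205 (exact permutation p = 0.624, adjusted 0.988) and rho 0.0238 (exact permutation p = 0.977, adjusted 0.977), and r was 0.366 without the 2 farthest arrays. All arrays enter both members of a pair, so shared array effects are part of these values.

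Between genes, taking the brightest probe set of each, 22 of 45 pairs had a positive r and 23 a negative one. Akt2 1388765_at and Slc2a4 1367989_at were the most alike (r = 0.9, exact permutation p = 0.00265, adjusted over the 45 pairs 0.119; rho = 0.762, exact permutation p = 0.0368, adjusted 0.516). Both had high-fat replicates 4 and 1 as their lowest arrays, and r was 0.595 without the 2 arrays farthest from the Akt2 median. The most opposed pair was Insr 1369051_at and Foxo1 1376779_at (r = -0.825, exact permutation p = 0.0172, adjusted 0.388; rho = -0.5, exact permutation p = 0.216, adjusted 0.781). Mulberry replicate 1 was the lowest array for Insr and the highest for Foxo1, and r was 0.0481 without the 2 arrays farthest from the Insr median. No pair passed the adjustment.

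The other genes of the pathway came from 6 lists of 136 symbols, of which 116 were measured, with the brightest probe set taken for each gene. None was called, as 0% of 14217 genes were. At an unadjusted p under 0.05 there were 4 of 116 (3.45%, 2 higher and 2 lower), against 4.15% of all genes. The count was 16 without high-fat replicate 3, where the share of all probe sets was 6.61%. It was 2 without either of mulberry replicates 1 and 2, against 4.5% and 3.96% of all probe sets. Groups did not overlap for 1 gene (0.862%), against 2.41%. Means were higher with mulberry for 53 and lower for 63, which is 45.7% higher against 49.1% of all genes. Median centring turned these counts to 108 higher and 8 lower and quantile normalization to 46 and 39.

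Kinases at and below AKT held 3 of those 4 genes, 11.1% of the 27 measured against 4.15% of all genes. The count was 0 after quantile normalization, 1 with the hybridization covariate and 6 after median centring. The shares of all probe sets in those settings were 1.43%, 2.55% and 8.03%. Of the 27, 15 had higher and 12 lower means (26 and 1 after median centring, 13 and 14 with the hybridization covariate). Gsk3b, the glycogen synthase kinase that AKT inhibits, differed by 1.45 ± 0.452 (SE, unadjusted limma p = 0.0153, exact permutation p = 0.0286), a difference that was 0 after quantile normalization. It was the gene whose groups did not overlap, its mulberry arrays lying at 1.28, 0.568, 0.467 and 0.596 and its high-fat arrays at -0.692, 0.0847, -1.97 and -0.333. Eif4ebp1, the translation repressor that mTOR inactivates, differed by 1.46 ± 0.464 (p = 0.017, exact permutation p = 0.0571). Pdpk1, the kinase that phosphorylates AKT, differed by -1.32 ± 0.518 (p = 0.039, exact permutation p = 0.0571), but turned to 0.707 when quantile-normalized and to 0.972 when median-centred.

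The PI3K subunits and lipid phosphatases had the most one-sided counts, with lower means for 9 of 11 genes (median difference -0.629). These became 6 lower and 4 higher after quantile normalization and 1 lower and 10 higher after median centring. With the hybridization covariate 10 were lower and 1 higher. None had an unadjusted p under 0.05 in the limma fit. Pik3r4, the regulatory partner of the vesicle lipid kinase, differed by -1.12 ± 0.575 (SE, 0.551 after median centring), the lipid phosphatase gene Inppl1 by -1.06 ± 0.61 (0.707 after quantile normalization, 1.12 after median centring) and Pik3c3, the kinase of autophagy, by -0.911 ± 0.647 (0.862 and 1.09). In all 3 of these genes mulberry replicate 3 or 4 was the lowest array, and high-fat replicate 3 lay below 0 with them.

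Receptor and adaptor genes had higher means in 9 of 19 (17 after median centring, 10 with the hybridization covariate) and none with an unadjusted p under 0.05. The adaptor Sh2b1 differed by 1.33 ± 0.587 (SE), Grb14, an inhibitor of the receptor kinase, by 0.904 ± 0.66 (-0.707 after quantile normalization, -0.0296 with the hybridization covariate) and the docking protein Gab2 by 0.784 ± 0.683 (-0.707). Negative regulators had higher means in 7 of 19 (19 after median centring, 7 against 4 lower after quantile normalization), with the phosphatase subunit Ppp2ca at -1.13 ± 0.65 (0.707 quantile-normalized, 1.15 median-centred), the stress kinase Mapk8 at 1.09 ± 0.65 (0 quantile-normalized) and the T cell kinase Prkcq at 0.887 ± 0.637 (0 quantile-normalized, -0.00435 with the hybridization covariate).

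Other hexose transporters and hexokinases had higher means in 10 of 16 genes, turning to 5 higher and 8 lower after quantile normalization and 15 higher after median centring. Txnip, the arrestin that restrains glucose uptake, differed by -1.04 ± 0.596 (SE, 0.707 after quantile normalization), the sodium-coupled carrier Slc5a1 by 0.978 ± 0.612 and Hk1, the hexokinase of red cells, by 0.69 ± 0.668. FOXO factors and targets had higher means in 10 of 24 genes (21 after median centring, 11 against 4 lower after quantile normalization), 1 of them with an unadjusted p under 0.05 and a lower mean. That was Bcl2l11, the death gene encoding BIM, at -1.3 ± 0.523 (SE, p = 0.0428, exact permutation p = 0.0571), whose difference turned to 0.935 when quantile-normalized and 1.06 when median-centred. Foxo4, a close relative of Foxo1, differed by 1.07 ± 0.59 and Btg1, an inhibitor of proliferation, by -1.11 ± 0.631 (0 after quantile normalization, 1.13 after median centring). High-fat replicate 4 was the highest of the 8 arrays for Pdpk1, Inppl1, Ppp2ca, Txnip, Bcl2l11 and Btg1, and the lowest for Foxo4.

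**Figure D3:**
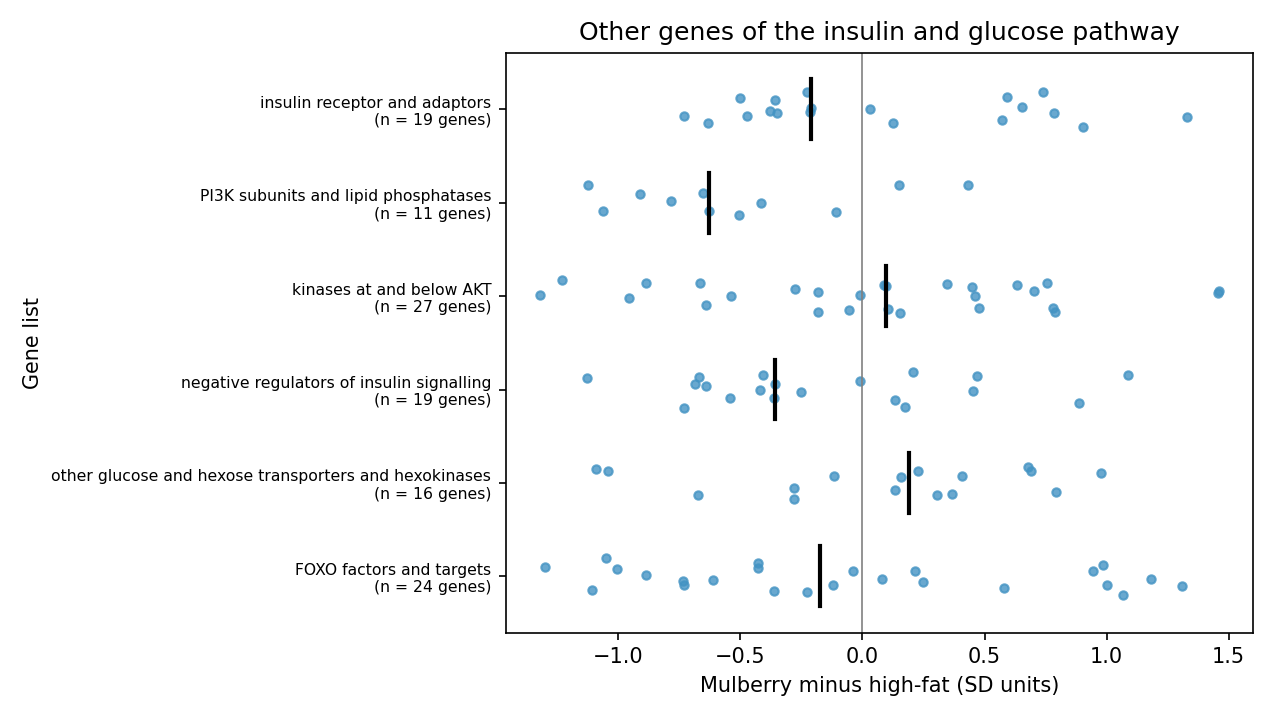
Each point is 1 gene of a list, and the horizontal axis gives mulberry minus high-fat in SD units on the deposited values; black bars are list medians, and points are jittered vertically. The lists spread on both sides of 0, and the PI3K list has the lowest median, -0.629.

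The lists of blood cell markers moved between arrays as well, and in whole blood fewer cells of a type and less RNA per cell cannot be told apart. Scores are means over a list in SD units. Natural killer markers had lower means with mulberry in 15 of 16 genes (12 after median centring), with scores from -0.336 to 1.95 on the high-fat and from -0.586 to -0.0697 on the mulberry arrays. B cell markers had lower means in 12 of 12 (9 after median centring), with scores from -0.844 to 1.32 and from -0.947 to 0.554. Platelet markers had higher means in 14 of 15 (7 higher and 2 lower after quantile normalization), with scores from -1.27 to 0.145 on the high-fat and from -0.259 to 1.52 on the mulberry arrays. Over all genes 49.1% of means were higher with mulberry. Genes of a list share the same arrays, so these counts are not of independent genes. For the scores, the exact permutation p was 0.143 for natural killer, 0.343 for B cell and 0.371 for platelet markers. The groups overlapped in each of these lists and in the other 4. Monocyte and macrophage scores ran from -0.495 to 1.22 and from -0.713 to 0.363, and T cell scores from -0.43 to 0.831 and from -0.231 to 0.496. Neutrophil scores ran from -1.16 to 0.569 and from -0.409 to 0.638, and erythroid scores from -0.782 to 0.739 and from -0.273 to 0.167. Counts of higher means follow as deposited, then quantile-normalized, median-centred and with the hybridization covariate. The rest were lower or at 0. They were 4, 1, 9 and 10 of 17 monocyte genes and 13, 8, 20 and 8 of 20 T cell genes. For neutrophil genes they were 9, 5, 12 and 12 of 14, and for erythroid genes 5, 4, 9 and 9 of 14. High-fat replicate 4 was the highest array on the natural killer and monocyte scores and the lowest on the platelet score.

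For the 3 described probe sets whose SD exceeded that of 90% of all probe sets, 21 correlations with the 7 blood cell scores were computed over the 8 arrays. None passed after adjustment. Akt1 1383126_at was most alike to the monocyte score (r = 0.87, exact permutation p = 0.00818, adjusted 0.104; rho = 0.714, exact permutation p = 0.0576, adjusted 0.505), with r at 0.506 without the 2 arrays farthest from the median score. Pik3r1 1370114_a_at ran against the platelet score (r = -0.831, exact permutation p = 0.0099, adjusted 0.104; rho = -0.643, exact permutation p = 0.0962, adjusted 0.505), with r at -0.345 without the 2 farthest arrays. Slc2a4 1367989_at ran against the natural killer score (r = -0.773, exact permutation p = 0.024, adjusted 0.126; rho = -0.405, exact permutation p = 0.327, adjusted 0.624), and r was 0.386 without the 2 farthest arrays. High-fat replicate 4 was 1 of the arrays left out each time. The other relations with an unadjusted p under 0.05 kept more of their r. Akt1 1383126_at with the natural killer score had r = 0.836 (exact permutation p = 0.0214, adjusted 0.126; rho = 0.643, exact permutation p = 0.0962, adjusted 0.505), and 0.679 without the 2 farthest arrays. Pik3r1 with the erythroid score had r = -0.709 (exact permutation p = 0.0475, adjusted 0.199; rho = -0.69, exact permutation p = 0.0694, adjusted 0.505), and -0.663 without them. Correlations within a diet, over 4 arrays, were not computed, and the part of cell makeup in the diet differences was not tested.

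**Figure D4:**
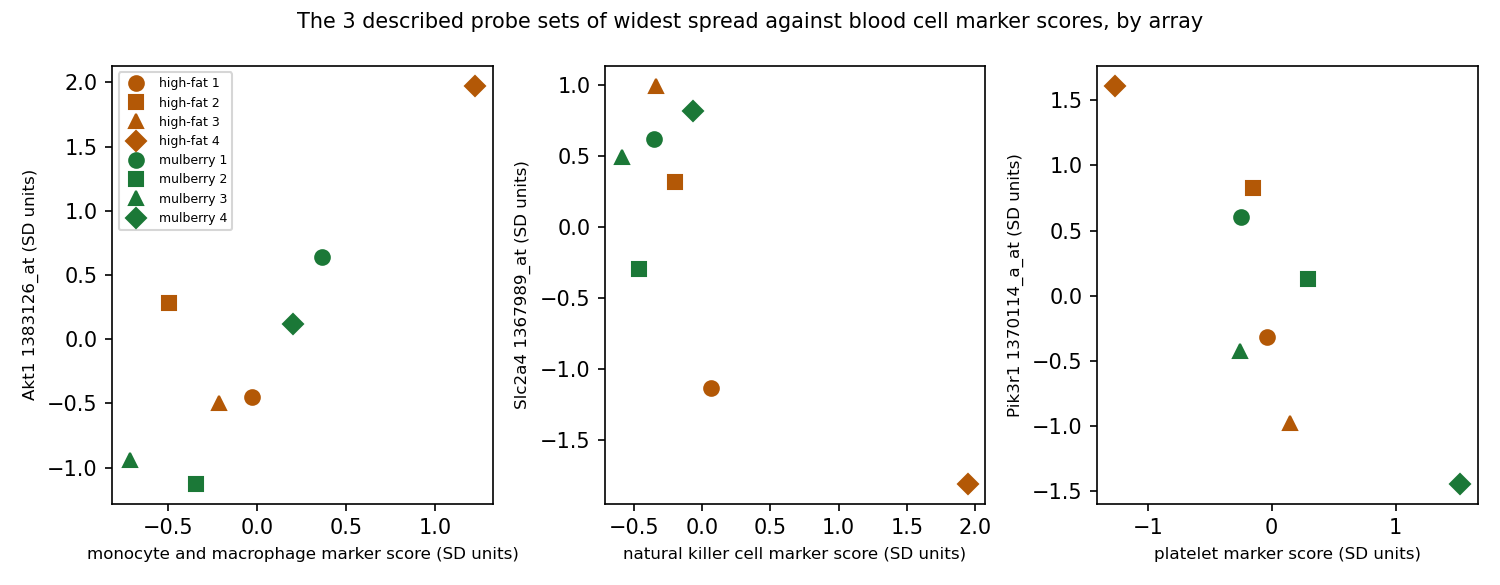
Each panel plots 1 probe set on the vertical axis against the blood cell marker score it was most correlated with on the horizontal axis, both in SD units, with 1 mark per array (orange high-fat, green mulberry, shape for replicate). High-fat replicate 4 lies at an end of each panel.

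The genes with the most similar profile over the 8 arrays were found among 14217 genes, so that high values of r arise easily and are given as a description. Akt2 1388765_at was most like Nfkbib (r = 0.995) and Med25 (0.984), and Akt1 1383126_at most like Ripk2 (0.991) and Ywhab (0.987). Irs1 was closest to Lipt2 (0.98) and Atp1b4 (0.934), Irs2 to Ccbe1 (0.972) and Kcnj10 (0.954), and Insr 1369051_at to Kcnk15 (0.954) and Myo9a (0.952). Pik3r1 resembled Eftud2 (0.966) and Btaf1 (0.958), and Foxo1 1376779_at resembled Dock1 (0.977) and Hbp1 (0.966). Among transporters, Slc2a1 was closest to Kdm5c (0.955) and Kiaa0319 (0.939), Slc2a3 1372326_at to Slc35f2 (0.938) and Sesn1 (0.933), and Slc2a4 1367989_at to Vkorc1l1 (0.976) and Slc16a10 (0.963).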

How the data were processed

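Total RNA of blood (TRIzol LS, then an RNeasy column) was turned into biotinylated aRNA from 200 ng and hybridised to an Affymetrix rat array, per the labels' protocols. The deposited values were read as log2 probe set summaries from their range (5.17 to 15.26); how the authors summarised and normalized the probes is not stated in the labels. No further normalization was applied. Signal over background was not used here. The number of arrays limits the precision. Over all probe sets tested the median SD between arrays was 5.31e-06, and 99.4% had an SD under 0.001.

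The 57 manufacturer controls and 4 probe sets with identical values on all arrays were left out, leaving 31038. Names came from the platform annotation, updated by gene number through RefSeq (assembly GRCr8): 20826 of 31042 probe sets named 1 gene, 436 several and 9780 none, and 20758 of the first matched. All 20 member symbols were unchanged. Diets were compared with limma 3.58.1 in R 4.3.3 (lmFit, eBayes, two-sided, no covariate). Errors are its moderated standard errors divided by the SD over the arrays of the same fit. Two-sided exact permutation tests over 70 assignments cannot go below 0.0286. Correlations used Python 3.11.15 and scipy 1.17.1. The fit was also run on simulated data with very large shifts, which does not measure its power for differences of the size described here.

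Every probe set of the members is described; from each of the 6 pathway lists the 3 genes of smallest unadjusted p are named, and for each member the 2 genes of highest r. The 11 marker lists give counts and scores, those of muscle, fat, liver and pancreas as counts passing the brightness filter. Members and lists were chosen with earlier results of these data known. Alternatives were quantile normalization, median centring, the mean of 18 hybridization controls as a covariate, the brighter probe sets alone, an eBayes trend, a replicate block, leaving out each array and, for pathway genes, the probe set of largest SD.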

Additional observations from a re-analysis of the deposited data

Results flagged for a closer look

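In 4 of the 40 groups of 4 arrays (20 probe sets, 2 diets), 1 array lay farther from its own group than Dixon's 95% limit allows, measured as its gap over the group's range. Chance gives about 1 in 20. Mulberry replicate 4 was low for Akt1 1375178_at (-0.754, gap 0.876 of the range), and high-fat replicate 4 was low for Slc2a3 1387707_at (-1.27, 0.869). High-fat replicate 3 was high for Slc2a1 (1.11, 0.835), and mulberry replicate 1 was high for Foxo1 1376779_at (1.9, 0.917). Values are in SD units.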

How the results depend on the processing

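No probe set was called under any alternative but quantile normalization, which called 3, none of them described above (an unnamed one, Ints7 and Epb42; chosen after their values were seen). None of the 20 was called under any of the 14 alternatives, with a lowest adjusted p of 0.162 (limma). Their count with a higher mean, 12 as deposited, was 20 after median centring and 10 to 14 without 1 array. Their count with an unadjusted p under 0.05, 1 as deposited, was 2 after quantile normalization (Akt2 1387353_at and Foxo1 1376779_at) and 0 to 3 without 1 array. Over all probe sets that share was 4.35% as deposited, 1.43% after quantile normalization, 8.03% after median centring and 2.55% with the hybridization covariate. Without 1 array it ran from 3.51% to 6.61%. The 3 came without high-fat replicate 4 (Insr 1392043_at, Irs1 and Slc2a3 1387707_at), and the count was 0 when high-fat replicates 1 or 2, or mulberry replicates 3 or 4, were left out in turn; with an eBayes trend or the hybridization covariate the 1 was Irs1, not Akt2. Pathway genes with a higher mean numbered 108 instead of 53 after median centring and 48 to 57 without 1 array. Those with an unadjusted p under 0.05, 4 as deposited, numbered 1 after quantile normalization, 14 after median centring, 2 with the hybridization covariate, 2 to 16 without 1 array, 16 without high-fat replicate 3, and 2 without mulberry replicate 1 or 2.

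Directions turned after quantile normalization for Irs2 1371091_at (-0.707), Akt1 1375178_at (-0.707), Akt1 1383126_at (0.483), Akt2 1368832_at (-0.0854), Akt2 1378425_at (-0.707), Slc2a1 1370848_at (0.121), Slc2a4 1388958_a_at (0.386), Pik3r1 1370114_a_at (0.611) and Foxo1 1377502_at (-0.665). After median centring they turned for Insr 1369051_at (1.14), Akt1 1368862_at (1.14), Akt1 1383126_at (0.108), Slc2a1 1370848_at (1.17), Slc2a3 1387707_at (1.09), Slc2a4 1388958_a_at (1.14), Pik3r1 1370114_a_at (0.126) and Foxo1 1375688_at (1.08), and with the hybridization covariate for Insr 1369051_at (0.839), Akt1 1368862_at (0.323), Akt2 1387353_at (-0.462) and Foxo1 1376779_at (-0.502). Leaving out 1 array turned Insr 1369051_at (-0.518 to 1.2), Irs2 1371091_at (-0.45 to 0.497), Akt1 1368862_at (-0.843 to 0.356), Akt2 1368832_at (-0.0723 to 0.794), Akt2 1387353_at (-0.0207 to 0.957), Slc2a1 1370848_at (-0.553 to 0.754), Slc2a4 1388958_a_at (-0.468 to 0.414), Foxo1 1376779_at (-0.75 to 0.341) and Foxo1 1377502_at (-0.257 to 0.805), given as the range over the 8 fits. The brighter probe sets alone, an eBayes trend and the replicate block cannot alter a difference of means. The paired fit with the replicate block moved counts of unadjusted p under 0.05 from 1351 to 1728 over all probe sets, from 1 to 0 for the 20 and from 4 to 9 for pathway genes. Same-numbered arrays correlated at -0.0462, -0.0505, 0.246 and 0.163 for replicates 1 to 4. High-fat replicates 3 and 4 were best matched by the mulberry array of their own number. High-fat replicates 1 and 2 were best matched by mulberry replicates 2 and 4. Whether the numbers pair the arrays was not tested. The causes of these turns were not tested, and those with the hybridization covariate used a score that ran with diet in part.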
